A study of Rattus norvegicus with 6 samples.

Results

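The intercalated disc, the end-to-end junction between heart muscle cells, was described here through 10 listed genes for its gap junctions, desmosomes, adherens junctions and desmin filaments. The genes were chosen by symbol, and 8 of the 10 stood in the deposited table of 22250 rat genes under the listed symbol: Gja1, Gja5, Dsg2, Dsc2, Dsp, Jup, Cdh2 and Des. All 8 were among the 13784 genes tested after the filter on low counts. Pkp2 and Ctnna3, the other 2, were not found under their symbols, and Pkp2 was not analysed here.

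RNA-Seq compared 3 young donor hearts, from Sprague-Dawley rats of 10 weeks (animals 3, 13 and 15), with 3 aged donor hearts, from Sprague-Dawley rats of 1 year (animals 3, 4 and 7). All donors carried the WT genotype. Every heart was arrested and stored cold in University of Wisconsin solution and then transplanted heterotopically into a young rat, and its left ventricular myocardium was taken on postoperative day 1. A heterotopic graft is perfused but does not carry the circulation of its host. The aim was to find what differs between aged and young donor hearts after transplantation. Both groups had been through the same storage and surgery and no heart without transplantation was in the comparison, so donor age and the response to the procedure cannot be told apart. Young animal 3 and aged animal 3 share a number but are separate animals.

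At the intercalated disc, gap junction channels built from connexins pass current from cell to cell, and desmosomes and adherens junctions hold the cells together against the force of contraction. In a desmosome, the cadherins desmoglein and desmocollin reach across the gap, plakoglobin and plakophilin bind their tails, and desmoplakin ties this plaque to desmin filaments. In an adherens junction, N-cadherin is linked to actin through catenins. Inherited defects of desmosomal proteins cause arrhythmogenic cardiomyopathy, and loss or displacement of the main ventricular connexin slows conduction.

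The libraries held 21457509 to 24560869 reads counted on genes. A level is given as CPM, the count per 1e6 reads of a library after TMM scaling (trimmed mean of M values), and the scaling factors ran from 0.733 to 1.24. A count of 3 reads, taken as the smallest signal, corresponds to 0.0985 to 0.191 CPM, for counting error only, and all 8 junction genes lay above it in every heart. Of 12 listed cardiomyocyte markers, 11 were in the table, and their summed level ran from 12623 to 86692 CPM in young donor hearts and from 153 to 7179 CPM in aged donor hearts. The cardiomyocyte score, the mean log2 CPM of these 11 markers, was 11.8, 11.9 and 9.61 in young animals 3, 13 and 15 and 3.26, 8.78 and 8.46 in aged animals 3, 4 and 7. Aged animal 3 therefore stood far below every other library in the markers that define its labelled tissue, and young animal 15 lay closer to aged animals 4 and 7 than to the other young hearts. Summed neutrophil markers ran the other way, from 26.8 to 272 CPM in young and from 585 to 1722 CPM in aged donor hearts, and summed macrophage markers from 324 to 2226 and from 3549 to 6851 CPM. The share of reads from the mitochondrial genome was 11.9% to 21.7% in young and 6.57% to 10.3% in aged donor hearts. In such bulk tissue, fewer cells of a type and less RNA per cell cannot be told apart.

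Of the 8 junction genes, 4 fell in aged donor hearts and 0 rose by the limits of the study (a fold of more than 1.5 or less than 0.67 at an unadjusted p under 0.05). The genes that fell were Dsp, Dsc2, Gja1 and Jup, while Cdh2, Dsg2, Des and Gja5 did not pass. Over all genes tested, 19.0% were lower and 13.2% were higher by these limits. After Benjamini-Hochberg adjustment in edgeR, 0 of the 8 and 0.0% of all genes passed at 0.05, and the lowest adjusted p-value of any gene was 0.0916. The unadjusted p-value was under 0.05 for 4 of the 8 and for 4731 of all genes, and an adjusted p-value under 0.05 was given by DESeq2 to 4 of the 8 and 3592 of all genes and by limma-voom with quality weights, which also counts the hearts unequally, to 5 of the 8 and 8416 of all genes. In 5 of the 8 genes the 3 aged hearts all lay below the 3 young hearts, and in 0 of them above, where 20.6% of all genes tested lay below and 21.0% above. The median log2 fold change was -1.18 over the 8 junction genes and 0.02 over all genes tested. The labels do not say more of the animals than their numbers, so the p-values measure the spread between these hearts. In a two-sided exact permutation test of 1 gene, the lowest p that 3 hearts in each group allow is 0.1.

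**Figure D1:**
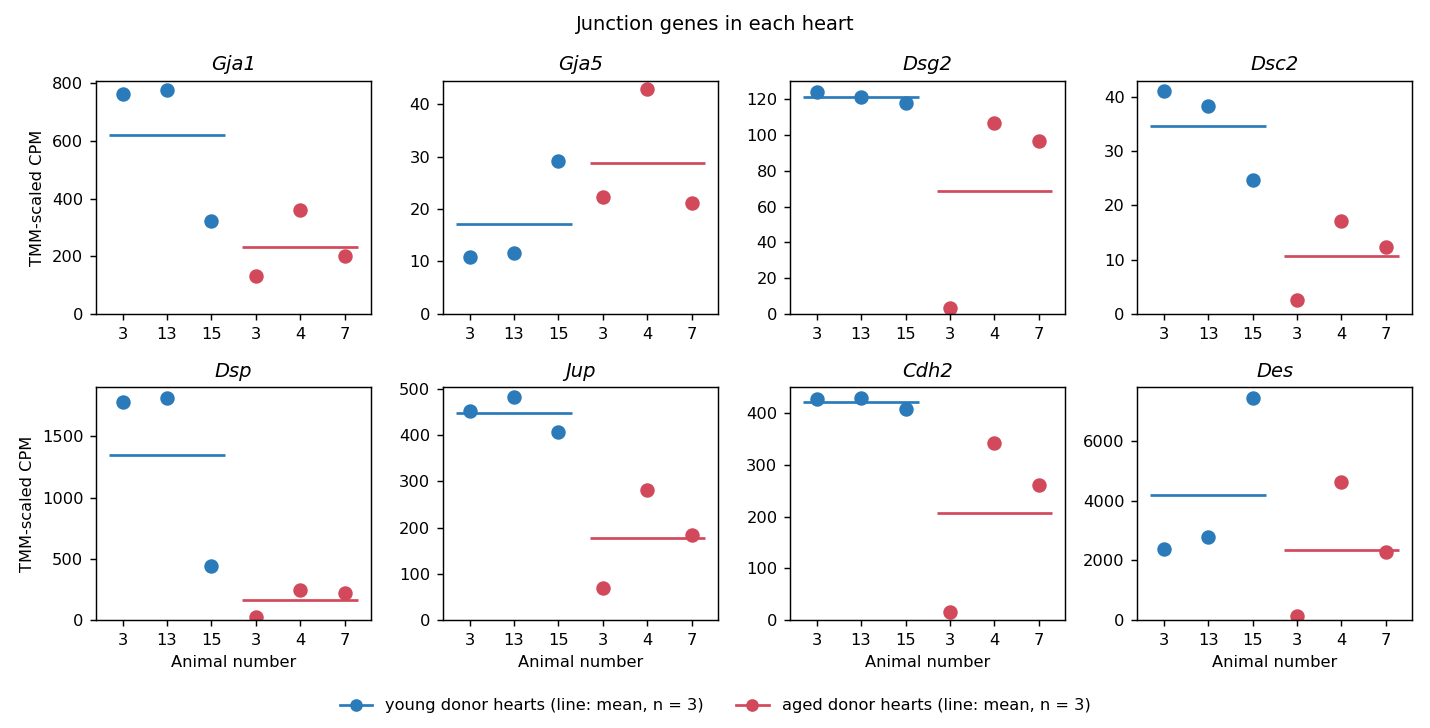
TMM-scaled CPM (linear axes from 0, a scale for each gene) of the 8 junction genes in each heart, with the animal number on the horizontal axis and a line at the mean of each group (n = 3). The aged points lie below all young points for Dsg2, Dsc2, Dsp, Jup and Cdh2, and aged animal 3 is the lowest point for every gene but Gja5.

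Among the gap junction genes, Gja1 fell and Gja5 did not. Gja1 (ENSRNOG00000000805, chr20:37876650-37889089, plus strand, Rnor_6.0) encodes the main connexin of the ventricle. It stood at 762, 775 and 322 CPM in young animals 3, 13 and 15 and at 133, 362 and 201 CPM in aged animals 3, 4 and 7. Young animals 3 and 13 were the highest, and the groups overlapped because aged animal 4 lay above young animal 15. The mean was 620 ± 258 CPM in young and 232 ± 117 CPM in aged donor hearts (SD, n = 3 each), 2.67-fold lower in the fit. The log2 fold change was -1.42 with a standard error of 0.51 (edgeR's quasi-likelihood test, p = 0.0303, Benjamini-Hochberg adjusted p = 0.117; exact permutation p = 0.2). The change did not pass the limits when young animal 3, young animal 13, aged animal 3 or aged animal 7 was left out, with edgeR p-values of 0.0801 to 0.0953.

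Gja5 (ENSRNOG00000017484, chr2:199162745-199184939, plus strand) encodes a connexin of the atria, the fast conduction fibres and the endothelium of arteries. Its level was 10.9, 11.6 and 29.2 CPM in young animals 3, 13 and 15 and 22.2, 42.8 and 21.2 CPM in aged animals 3, 4 and 7. Young animal 15 lay within the range of the aged hearts, and aged animal 4 was the highest of all. The mean was 17.2 ± 10.3 CPM in young and 28.7 ± 12.2 CPM in aged donor hearts (SD, n = 3 each). The change of 0.73 ± 0.49 (log2, SE) did not pass the test (edgeR p = 0.180, Benjamini-Hochberg adjusted p = 0.301; exact permutation p = 0.3). It was the 1 gene of the 8 with a positive value. Without young animal 15 it was 1.38 (edgeR, Benjamini-Hochberg adjusted p = 0.0238), which is past the limits, as is the 1.20 of limma-voom with quality weights (adjusted p = 0.00840). In these settings 26.9% and 26.8% of all genes were higher. Without aged animal 4, the heart with the highest Gja5, it was 0.33, and without young animal 3 or 13 it was 0.49 or 0.52, none past the limits. Beside these values, the 6 arterial endothelial markers summed to 120 to 222 CPM in young and 136 to 183 CPM in aged donor hearts, with 0 lower and 1 higher. The atrial markers summed to 83.6, 44.8 and 394 CPM in young animals 3, 13 and 15 and to 5.65, 1517 and 371 CPM in aged animals 3, 4 and 7, highest in the same heart as Gja5, and their part in the result was not tested. Nppa, an atrial peptide gene named after its values were seen, made up 390 CPM of the sum in young animal 15, 1367 CPM in aged animal 4 and 368 CPM in aged animal 7. The other atrial markers did not follow it in young animal 15 or aged animal 7. Myl7, Myl4 and Sln stood at 0.50, 3.26 and 0.08 CPM in young animal 15 and at 0.54, 2.64 and 0.31 CPM in aged animal 7. They were highest in aged animal 4, at 69.1, 47.7 and 33.2 CPM, and stood at 49.7, 4.66 and 8.05 CPM in young animal 3. The conduction system markers summed to 67.9 to 491 CPM in young and 23.1 to 44.4 CPM in aged donor hearts. Of these 5 markers 3 were lower, where 19.0% of all genes tested were lower. Hcn4, also named after its values were seen, made up 452 CPM of the sum in young animal 15. It stood at 13.6 and 27.1 CPM in young animals 3 and 13. In aged animals 3, 4 and 7 it stood at 0.23, 23.6 and 1.84 CPM, and its change did not pass the limits.

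The 250 bases before the start of both connexin genes are shown because Gja1 fell while Gja5, the other connexin gene of the list, did not pass the test. The sequences are from RefSeq (GRCr8, a later build than that of the table), written 5′ to 3′ on the strand of the gene. Capitals mark matches on either strand. The motifs searched were the GC box, written GGGCGG, and the E-box, which muscle regulators of the bHLH class read and which is written CANNTG. The AP-1 site was searched as TGANTCA. The site of GATA factors was searched as AGATAA, and the MEF2 site by its usual consensus. Gja1 lies at chr20:36302314-36302563 (plus strand) and Gja5 at chr2:187290977-187291226 (plus strand).
Gja1: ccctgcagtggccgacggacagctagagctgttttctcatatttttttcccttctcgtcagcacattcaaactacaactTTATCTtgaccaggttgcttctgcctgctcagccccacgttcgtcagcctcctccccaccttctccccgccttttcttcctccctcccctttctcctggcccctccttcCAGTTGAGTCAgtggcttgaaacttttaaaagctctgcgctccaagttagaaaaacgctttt
Gja5: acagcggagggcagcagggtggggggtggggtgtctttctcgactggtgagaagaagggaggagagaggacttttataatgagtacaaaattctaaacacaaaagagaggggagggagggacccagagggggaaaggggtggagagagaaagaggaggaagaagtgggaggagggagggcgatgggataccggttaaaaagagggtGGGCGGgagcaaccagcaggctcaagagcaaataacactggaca
The Gja1 window held a GATA match beginning 171 bases before the start, and an E-box at 62 and an AP-1 match at 58 bases that share letters. It held 0 GC boxes. The Gja5 window held 1 GC box at 44 bases before the start and none of the other matches. Of all 33469 windows of this length, 30.5% held a GC box, 65.5% an E-box, 6.34% an AP-1 match, 10.3% a GATA match and 2.96% a MEF2 match. A match describes the letters and does not show a binding site.

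Within each heart, Gja5 was set against Gja1 as a difference of log2 CPM, which does not depend on the library scaling. It was -6.12, -6.05 and -3.46 in young animals 3, 13 and 15 and -2.58, -3.08 and -3.25 in aged animals 3, 4 and 7. All aged hearts lay above all young hearts, although young animal 15 lay close to them. The difference between the groups was 2.24 (exact permutation p = 0.1, the smallest possible; Benjamini-Hochberg adjusted over 16 differences, 0.16). For Gjc1, a connexin of the conduction system and vessel wall, against Gja1 the young hearts gave -4.76, -4.92 and -3.80, and the aged hearts -1.89, -3.66 and -2.84, in the same animal order. The groups again did not overlap, and they differed by 1.70 (exact permutation p = 0.1, adjusted 0.16). Gjc1 itself had a log2 fold change of 0.27 (edgeR p = 0.180; exact permutation p = 0.2), with 23.0 to 28.1 CPM in young and 28.0 to 35.9 CPM in aged donor hearts.

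The desmosomal cadherins had unequal values. Dsc2 (ENSRNOG00000039969, chr18:11826706-11858754, minus strand), desmocollin 2, stood at 41.0, 38.3 and 24.6 CPM in young animals 3, 13 and 15 and at 2.50, 17.1 and 12.3 CPM in aged animals 3, 4 and 7. Every aged heart lay below every young heart. Its mean was 34.6 ± 8.80 CPM in young and 10.6 ± 7.43 CPM in aged donor hearts (SD, n = 3 each), and it fell 3.26-fold in the fit. On the log2 scale the change was -1.71 ± 0.66 (SE; edgeR p = 0.0384, Benjamini-Hochberg adjusted p = 0.129; exact permutation p = 0.1). It did not pass the limits without young animal 3, young animal 13 or aged animal 7, with edgeR p-values of 0.0779 to 0.0864.

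Dsg2 (ENSRNOG00000016526, chr18:15579315-15637715, minus strand), the desmoglein of heart muscle, stood at 124, 121 and 118 CPM in young animals 3, 13 and 15 and at 3.15, 107 and 96.4 CPM in aged animals 3, 4 and 7. The young hearts lay within a narrow range, aged animals 4 and 7 just below it, and aged animal 3 far below. The mean was 121 ± 3.11 CPM in young and 68.7 ± 57.0 CPM in aged donor hearts (SD, n = 3 each). The fitted change of -0.82 ± 1.01 (log2, SE) did not pass (edgeR p = 0.449, Benjamini-Hochberg adjusted p = 0.576; exact permutation p = 0.1), and without aged animal 3 it was -0.25. The within-heart difference of Dsc2 minus Dsg2 changed by -0.14 between the groups (exact permutation p = 0.9), and by -0.96 without aged animal 3, when the aged hearts lay below all young hearts.

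Of the listed genes of the desmosomal plaque, both that were found by symbol, Dsp and Jup, fell. Dsp (ENSRNOG00000013928, chr17:27286796-27334379, minus strand) encodes desmoplakin, which ties the plaque to desmin. It stood at 1776, 1809 and 446 CPM in young animals 3, 13 and 15 and at 28.5, 251 and 222 CPM in aged animals 3, 4 and 7. Young animals 3 and 13 stood well above the rest, and every aged heart lay below young animal 15. The mean was 1344 ± 777 CPM in young and 167 ± 121 CPM in aged donor hearts (SD, n = 3 each), 8.04-fold lower in the fit. The change of -3.01 ± 0.94 (SE) was the lowest of the 8 (edgeR p = 0.0170, Benjamini-Hochberg adjusted p = 0.0978; exact permutation p = 0.1). It passed the limits in all 6 fits that left out 1 heart, where it ran from -3.42 to -2.50.

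The window before the start of Dsp is shown because this gene had the largest fall of the 8, and that of Des because desmin filaments are what desmoplakin anchors. In GRCr8, Dsp lies at chr17:26877122-26877371 (minus strand) and Des at chr9:84299376-84299625 (plus strand). Capitals mark the same motifs as above.
Dsp: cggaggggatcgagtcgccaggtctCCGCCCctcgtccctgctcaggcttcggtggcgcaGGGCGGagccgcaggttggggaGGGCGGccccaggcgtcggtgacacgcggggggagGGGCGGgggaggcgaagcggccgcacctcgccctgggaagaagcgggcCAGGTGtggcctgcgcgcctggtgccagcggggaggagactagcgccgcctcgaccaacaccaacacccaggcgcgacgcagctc
Des: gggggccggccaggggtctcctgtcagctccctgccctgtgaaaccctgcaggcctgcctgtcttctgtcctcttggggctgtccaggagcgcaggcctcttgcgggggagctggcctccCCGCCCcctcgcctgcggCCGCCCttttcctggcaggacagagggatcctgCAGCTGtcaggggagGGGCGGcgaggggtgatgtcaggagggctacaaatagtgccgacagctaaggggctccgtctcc
The Dsp window was 75.2% G and C, against a median of 51.2% over all windows, and held 4 GC boxes and 1 E-box. The Des window was 68.8% G and C and held 3 GC boxes and 1 E-box. RefSeq windows were given for 7 of the 8 junction genes, not for Cdh2, and 6 of the 7 held a GC box, 6 an E-box, 1 an AP-1 match, 1 a GATA match and 0 a MEF2 match.

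Jup (ENSRNOG00000015380, chr10:88279632-88307412, minus strand) encodes plakoglobin, which is shared by desmosomes and adherens junctions. It stood at 453, 482 and 407 CPM in young animals 3, 13 and 15 and at 70.7, 281 and 183 CPM in aged animals 3, 4 and 7. The young hearts lay close together, young animal 15 among them, and every aged heart lay below. The mean was 447 ± 37.6 CPM in young and 178 ± 105 CPM in aged donor hearts (SD, n = 3 each), 2.51-fold lower in the fit. On the log2 scale the change was -1.33 ± 0.49 (SE; edgeR p = 0.0329, Benjamini-Hochberg adjusted p = 0.121; exact permutation p = 0.1). It did not pass the limits without young animal 3, young animal 13 or aged animal 7, with edgeR p-values of 0.0666 to 0.0837.

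Plakoglobin and beta-catenin (Ctnnb1), its close relative, can both bind N-cadherin. Within hearts, Jup minus Ctnnb1 was 0.13, 0.01 and 0.15 in young animals 3, 13 and 15 and -2.86, -0.62 and -1.01 in aged animals 3, 4 and 7, in log2 CPM. All aged hearts lay below all young hearts, with a difference of -1.59 (exact permutation p = 0.1, adjusted 0.16). Without aged animal 3 it was -0.91. Ctnnb1 itself differed by 0.06 on the log2 scale and did not pass the test. For Jup minus Dsp the young hearts gave -1.97, -1.91 and -0.13, and the aged hearts 1.31, 0.16 and -0.28, in the same animal order. There the groups overlapped, with young animal 15 among the aged hearts, and the difference was 1.74 (exact permutation p = 0.2, adjusted 0.229). Dsp minus Dsg2 differed by -1.36 (exact permutation p = 0.2), with overlap, and without aged animal 3 the groups did not overlap.

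**Figure D2:**
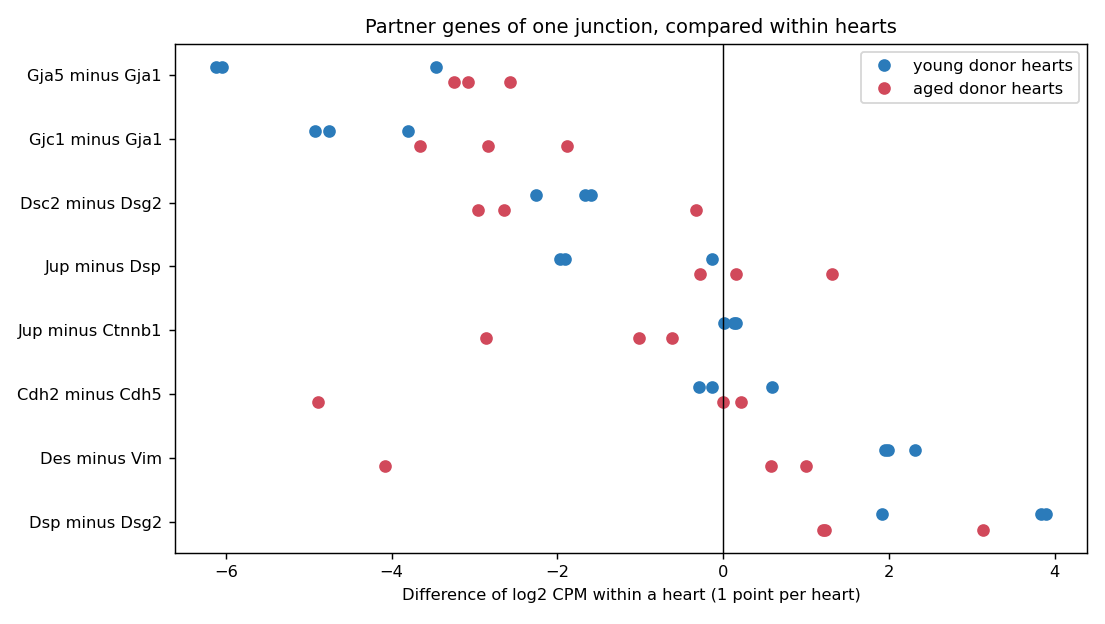
Difference of log2 CPM between partner genes within a heart (horizontal axis), with 1 point for each of the 3 young and 3 aged donor hearts and 1 line of points for each pair. The groups do not overlap for Gja5 minus Gja1, Gjc1 minus Gja1, Jup minus Ctnnb1 and Des minus Vim, which are 4 of 8 pairs.

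Cdh2 (ENSRNOG00000015602, chr18:8146971-8360684, minus strand) encodes N-cadherin, the adherens junction cadherin of heart muscle. It stood at 427, 428 and 406 CPM in young animals 3, 13 and 15 and at 16.2, 341 and 261 CPM in aged animals 3, 4 and 7. As with Dsg2, the young hearts were nearly level, aged animals 4 and 7 lay moderately below, and aged animal 3 was far below. The mean was 420 ± 12.2 CPM in young and 206 ± 169 CPM in aged donor hearts (SD, n = 3 each). The fitted change of -1.03 ± 0.91 (log2, SE) did not pass (edgeR p = 0.301, Benjamini-Hochberg adjusted p = 0.431; exact permutation p = 0.1), and without aged animal 3 it was -0.48. Against Cdh5, the cadherin of endothelial cells, Cdh2 differed between the groups by -1.61 within hearts, with overlap (exact permutation p = 0.6), and by 0.05 without aged animal 3.

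Des (ENSRNOG00000019810, chr9:82556573-82564294, plus strand) encodes desmin, the intermediate filament of muscle. It stood at 2370, 2780 and 7413 CPM in young animals 3, 13 and 15 and at 140, 4627 and 2298 CPM in aged animals 3, 4 and 7. Young animal 15 was the highest and aged animal 3 the lowest, and the other 4 hearts of both groups were mixed. The mean was 4188 ± 2801 CPM in young and 2355 ± 2244 CPM in aged donor hearts (SD, n = 3 each), and the log2 fold change of -0.83 ± 1.13 (SE) did not pass (edgeR p = 0.489, Benjamini-Hochberg adjusted p = 0.611; exact permutation p = 0.4). With both young animal 15 and aged animal 3 left out, which was chosen after seeing the data, it was 0.46. Vimentin (Vim) is an intermediate filament of many cells other than heart muscle. Against it, Des was 1.96, 2.32 and 1.99 log2 units higher in young animals 3, 13 and 15. The difference of Des minus Vim was -4.08, 1.00 and 0.58 in aged animals 3, 4 and 7. All aged hearts lay below all young hearts, by -2.92 (exact permutation p = 0.1, adjusted 0.16) and, without aged animal 3, by -1.30. Vim itself had a mean of 1011 ± 741 CPM in young and 2070 ± 458 CPM in aged donor hearts (SD, n = 3 each). Its change of 1.03 on the log2 scale did not pass, and without aged animal 3 that of Des was -0.27.

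Ctnna3, the catenin of the mixed junctions of heart muscle, was not listed by its symbol. A row named AABR07044914.1 (ENSRNOG00000000378, chr20:26516836-26589209, minus strand) is described in the table as catenin alpha 3 and is outside the rule for the listed genes. It held 83, 98 and 95 reads in young animals 3, 13 and 15 and 7, 38 and 37 reads in aged animals 3, 4 and 7. Every aged heart lay below every young heart, and the log2 fold change was -2.30 ± 0.67 (SE; edgeR p = 0.0126, Benjamini-Hochberg adjusted p = 0.0929; exact permutation p = 0.1). The pairs of Ctnna3 with Ctnna1 and of Pkp2 with Dsp were not computed.

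**Figure D3:**
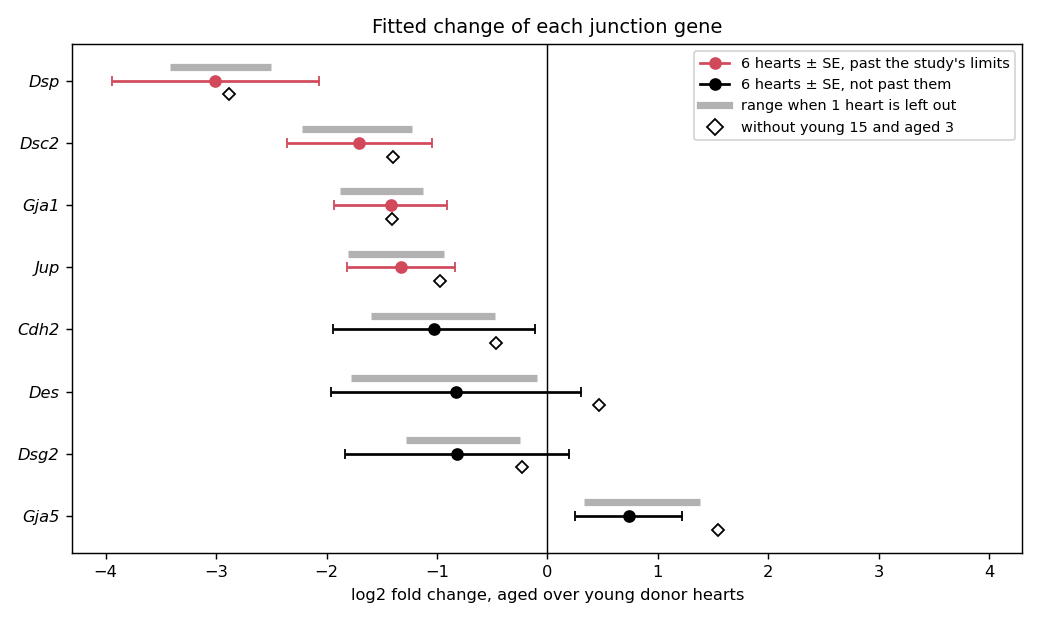
Fitted log2 fold change of aged over young donor hearts for the 8 junction genes (points with SE bars), with grey bars for the range when any 1 of the 6 hearts was omitted and open diamonds for the fit without young animal 15 and aged animal 3. Dsp, Dsc2, Gja1 and Jup pass the study's limits, and of the values plotted only that of Des without those 2 hearts, 0.46, lies across 0 from its main value.

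Levels between genes were compared per kilobase of the gene length in the table, as CPM per kilobase. In young donor hearts the order was Des (1925 ± 1287), Gja1 (198 ± 82.5), Dsp (140 ± 81.2), Jup (101 ± 8.47), Cdh2 (96.9 ± 2.81), Dsg2 (21.5 ± 0.55), Dsc2 (7.59 ± 1.93) and Gja5 (5.59 ± 3.36; all SD, n = 3). The ranges of neighbours in this order did not overlap for Des and Gja1, for Cdh2 and Dsg2, or for Dsg2 and Dsc2, and they overlapped for all other neighbours. In aged donor hearts the order was Des (1082 ± 1031), Gja1 (74.2 ± 37.5), Cdh2 (47.5 ± 39.0), Jup (40.1 ± 23.7), Dsp (17.5 ± 12.6), Dsg2 (12.2 ± 10.1), Gja5 (9.32 ± 3.96) and Dsc2 (2.33 ± 1.63; all SD, n = 3). Dsp stood after Gja1 in the young order and after Jup in the aged order, and Gja5 and Dsc2 changed places. Of the aged neighbours, Gja5 and Dsc2 were the pair whose ranges did not overlap. As a description over 6 hearts that share group and cardiomyocyte score, the correlations of log2 CPM between Gja5 and the other 7 genes ran from -0.57 with Dsp to 0.16 with Des, and the highest of all pairs was 0.996, for Dsg2 with Cdh2.

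The 8 genes were also set against the cardiomyocyte score of the same heart, since they are expressed in heart muscle cells, although several of them, Gja5 and Jup among them, occur in other cells too. The score itself was lower in all aged than in all young hearts. A gene that was level, or fell less than the score, can therefore lie higher by this measure. The log2 CPM of a gene minus the score was higher in all aged than in all young hearts for 6 of the 8 genes, all but Jup and Des. The share of all genes that do so was not computed, so this count cannot be read as particular to the 8. The separation of Dsp was very narrow, with -0.807 in young animal 15 and -0.805 in aged animal 4. The overlap of Jup was also narrow, with -0.938 in young animal 15 and -0.946 in aged animal 7. The difference between the groups was 0.99 for Dsp, 2.21 for Dsc2, 2.35 for Dsg2, 2.37 for Cdh2, 2.83 for Gja1 and 5.07 for Gja5 (exact permutation p = 0.1 each, adjusted 0.16). It was 2.72 for Jup and 2.58 for Des, with overlap (exact permutation p = 0.2 each, adjusted 0.229). Without aged animal 3 the count was again 6 of the 8, and leaving out a heart could not have lowered it. The differences were then 0.22 for Dsp, 1.26 for Dsc2, 1.38 for Gja1, 1.498 for Jup, 1.98 for Cdh2, 2.22 for Dsg2, 2.31 for Des and 3.43 for Gja5. With the score as a covariate in edgeR, 0 of the 8 genes passed the limits, where 3.07% of all genes were lower and 2.6% higher. The log2 fold changes of the genes that fell were then -0.69 for Dsp, -0.35 for Gja1, -0.31 for Jup and -0.15 for Dsc2 (edgeR, unadjusted p-values of 0.188, 0.537, 0.437 and 0.646).

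**Figure D4:**
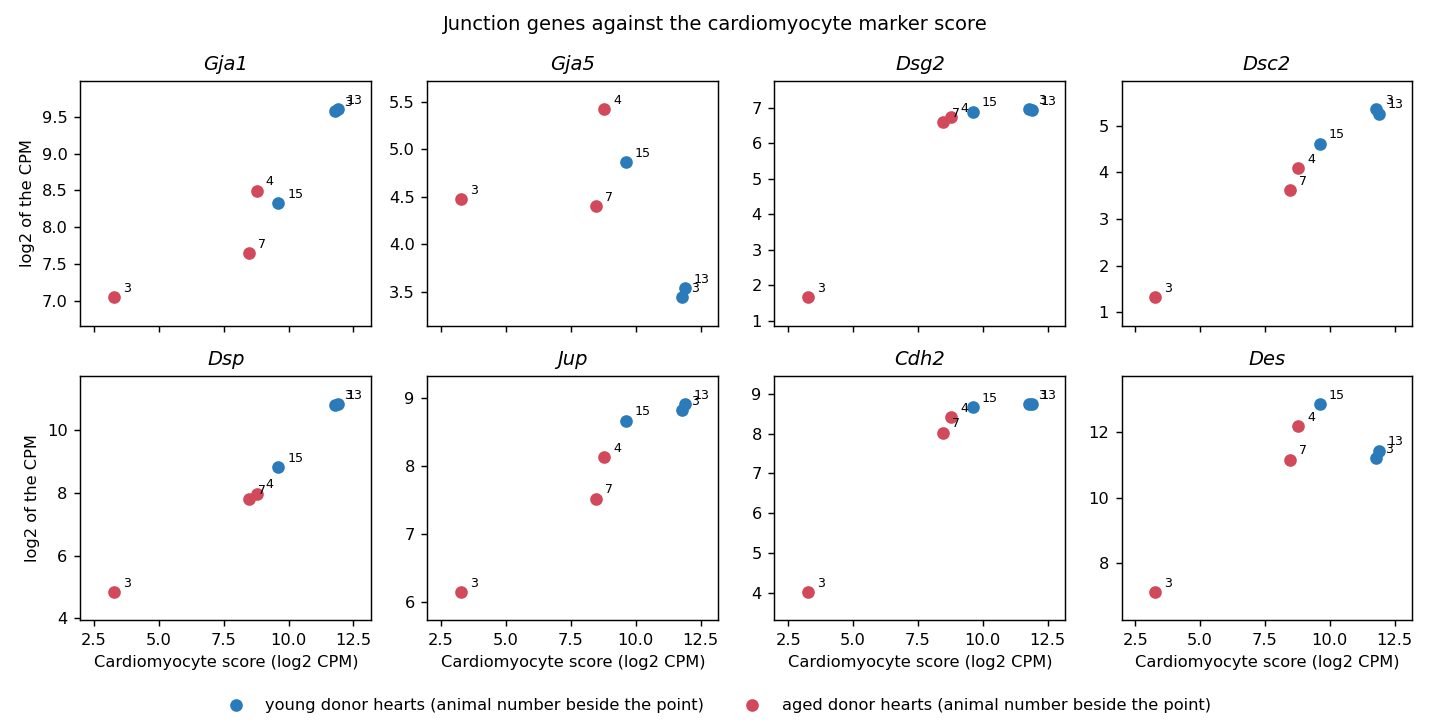
Log2 of the CPM of each junction gene (vertical axes, a scale for each gene) against the cardiomyocyte score in log2 CPM (horizontal axis), with 1 point and the animal number for each of the 6 hearts. Aged animal 3, at a score of 3.26, is the leftmost point in every panel, and Gja5 is the gene whose lowest points are young animals 3 and 13.

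For each junction gene, the 3 genes with the most similar log2 CPM over the 6 hearts were found among 12957 genes with a mean of at least 1 CPM, as a description that rests on 6 points. For Gja1 they were Ergic2 (r = 0.999), Pc and Kifc2, and for Gja5 Atox1 (r = 0.994), Ccnd1 and Ogg1. For Dsp they were Ppp1r14c, Apool and Myoz2, for Jup Smyd1, Nuak1 and Pdlim5, and for Dsc2 Asb12, Grb14 and Eef1a2. Dsg2 and Cdh2 had Hspb8 in common, beside Trim54 and Cryab for Dsg2 and Nkx2-5 and Rfng for Cdh2. For Des they included Mical2 (r = 0.997) and H4f3 (r = 0.995).

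Of 75 other listed junction genes, 72 were in the table and 54 were tested. Among the 54, 14 were lower, 2 were higher and 38 did not pass, with a median log2 fold change of -0.53. By the same limits 19.0% of all genes tested were lower and 13.2% higher, with a median of 0.02. The counts of each list below are to be read beside these shares. In the adherens and mixed junction list, 7 of 14 tested were lower and 0 higher, with a median of -0.85. Ldb3, which encodes a Z-line protein, fell by 4.47 on the log2 scale, and Tmem65, an intercalated disc membrane protein, fell by 2.10. Vcl (vinculin) fell by 0.94, Tjp1 (a zonula occludens scaffold) fell by 0.86 and Ctnna1, the catenin that links cadherins to actin, fell by 0.85. In the list of disc channels and their anchors, 4 of 10 tested were lower and 0 higher, with a median of -2.05. Ank2 (an ankyrin) fell by 2.18, Ank3 (another) fell by 1.38 and Fgf13, an intracellular member of the FGF family, fell by 2.96. The groups overlapped for Ank2, with 44.0 CPM in young animal 15 and 44.2 CPM in aged animal 4 (exact permutation p = 0.2).

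In the list of other connexins, 5 of 17 in the table were tested, with 0 lower and 1 higher. The 1 that rose was Gjb2, a connexin of epithelia, at 0.24, 0.06 and 0.33 CPM in young animals 3, 13 and 15 and 1.38, 0.95 and 1.38 CPM in aged animals 3, 4 and 7. Its log2 fold change was 2.46 (edgeR p = 0.00437; exact permutation p = 0.1), and 1 to 8 reads stood behind each young value. Gja4, a connexin of arterial endothelium, stood at 20.4 to 24.4 CPM in young and 23.5 to 51.8 CPM in aged donor hearts, and its log2 fold change of 0.53 did not pass. Of 2 pannexins tested, 0 were lower and 0 higher. Of 6 other cadherins tested, 1 was lower and 0 higher, namely Cdh13, a cadherin anchored to the membrane by lipid, which fell by 0.98. Of 9 desmin partners tested, 0 were lower and 0 higher, and their median was 0.17.

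Of 8 other desmosomal genes tested, 2 were lower and 1 higher. On the log2 scale, Pkp4, a plakophilin relative, fell by 0.93, and Perp, a desmosomal membrane protein, fell by 3.01. The groups overlapped for Pkp4, with 82.4 CPM in young animal 15 and 84.1 CPM in aged animal 4 (exact permutation p = 0.2). Dsg3, a desmoglein known from squamous epithelia, had 7, 3 and 174 reads in young animals 3, 13 and 15 and 1316, 533 and 569 reads in aged animals 3, 4 and 7. These are 0.42, 0.19 and 7.19 CPM in the young and 43.2, 20.2 and 21.8 CPM in the aged hearts. All aged hearts lay above all young hearts, and aged animal 3, the lowest for Dsg2, was the highest for Dsg3. The log2 fold change of 3.41 ± 1.24 (SE) passed the limits (edgeR p = 0.0316, Benjamini-Hochberg adjusted p = 0.118; exact permutation p = 0.1). Dsg3 lies 12811 bases from Dsg2 in the table, on chromosome 18, and 0 genes in the table overlap any of the 8 junction genes. The 8 mesothelial and epithelial markers summed to 17.1 to 51.7 CPM in young and 15.1 to 29.0 CPM in aged donor hearts, with 0 of 5 tested higher. The summed neutrophil markers, of which 6 of 8 were higher, moved with Dsg3 between the groups. So did the summed macrophage markers, of which 4 of 8 were higher, where 13.2% of all genes tested were higher. The part of either list in the result was not tested.

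**Figure D5:**
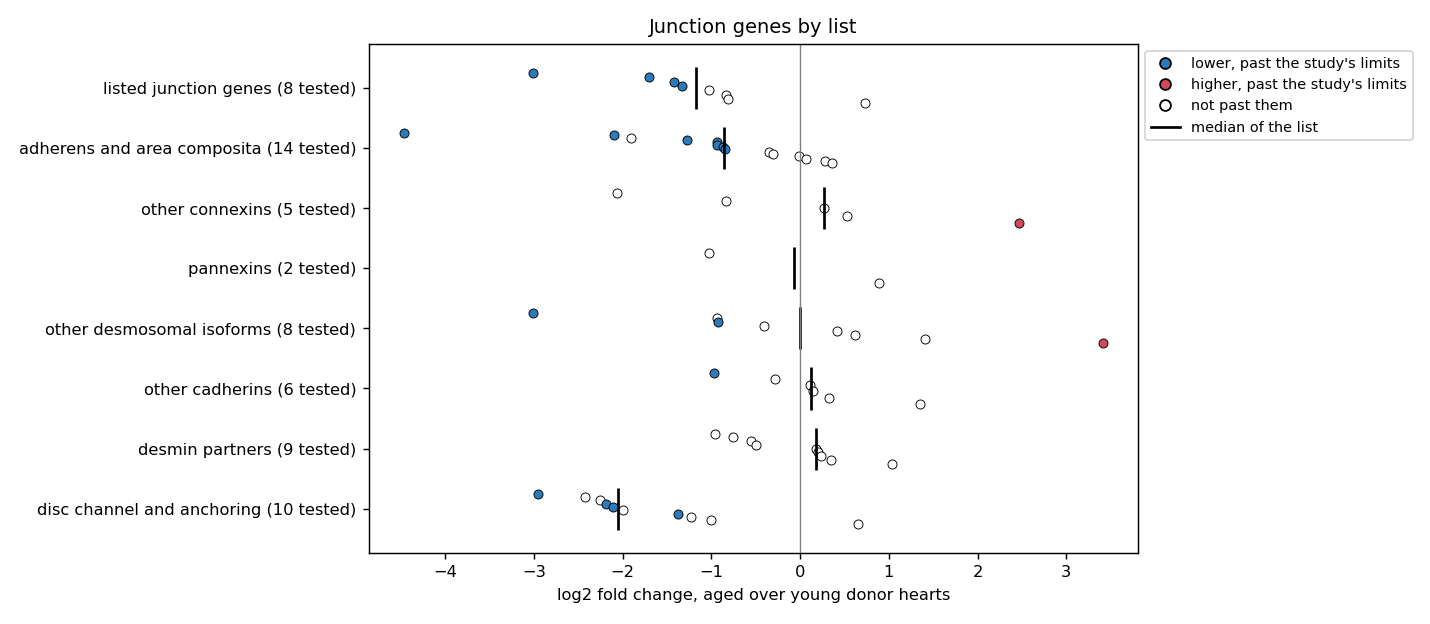
Log2 fold change of aged over young donor hearts for the 8 junction genes and the tested genes of 7 other lists (1 point per gene, filled where past the study's limits, with a bar at the median of each list). The junction genes have a median of -1.18 and the disc channels and anchors one of -2.05, and the 2 filled points on the right are Gjb2 at 2.46 and Dsg3 at 3.41.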

How the data were processed

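RNA-Seq of 3 young and 3 aged donor hearts was analysed. The authors deposited 1 table with the raw read count and the FPKM value of each gene in each heart. The deposited FPKM is the count over gene length and library total, which held in all but 1 of 133500 values. The submitters' processing notes name HISAT2 2.0.5, StringTie 1.3.3b, featureCounts 1.5.0-p3, DESeq2 1.16.1, GATK 3.7 and Rnor_6.0. Use of strand in counting is not given in the sources used here. Counts were fitted with edgeR 4.0.16 in R 4.3.3 (filterByExpr, TMM, quasi-likelihood test, no covariate, Benjamini-Hochberg adjustment over 13784 genes). The SE is the log2 fold change over the square root of F. Log2 CPM used a prior count of 2. DESeq2 1.42.0 and limma 3.58.1 (voom with quality weights per heart) were alternatives, as were other scalings, filters and thresholds, the cardiomyocyte score as a covariate, and leaving out hearts. Permutation tests were two-sided and exact (scipy 1.17.1). The fits were tested on simulated data, drawn from a mean profile common to all hearts apart from the genes changed on purpose. The simulation did not hold the differences between these hearts in cardiomyocyte score, so it does not test the fits under them.

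The genes and lists were chosen with earlier results of these data known. The text names the 10 listed genes and their partners in the pairs, at most the 4 genes with the smallest p among those past the limits in each other list, Ctnnb1, Ctnna1, Vcl, Tjp1, Gjc1 and Gja4 whatever their values, and the 3 genes most like each junction gene. Some genes that these choices cover are not reported here. Genes that missed the filter on low counts were not tested.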

Additional observations from a re-analysis of the deposited data

How the results depend on the processing

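The 4 junction genes that fell by the study's limits became 1 (Dsp) with library totals alone as the scaling, 0 with the cardiomyocyte score as a covariate and 0 by the adjusted p-value, and 1 to 4 when 1 heart was left out (1 without young animal 3, young animal 13 or aged animal 7, where 11.5%, 11.6% and 13.7% of all genes were lower, against 19.0% with 6 hearts). The 0 that rose became 1 (Gja5) with limma-voom with quality weights, which changes the test and the weight of each heart at once, and 1 with young animal 15 and aged animal 3 both left out, a choice made after seeing the data, and 0 to 1 when 1 heart was left out (1 without young animal 15). In these 3 settings 26.8%, 27.2% and 26.9% of all genes were higher, against 13.2% with 6 hearts. Over the 6 fits without 1 heart, the share of all genes higher ran from 5.83% to 26.9%. The 5 genes without overlap became 3 with library totals, and 5 to 7 when 1 heart was left out. Leaving out a heart cannot lower this count, and it makes separation easier for every gene. The share of all genes without overlap in these settings is not given here, so these counts cannot be read as particular to the 8. Library totals moved the median log2 fold change of all genes from 0.02 to 0.46, and turned 1815 higher and 2621 lower genes into 3147 and 1441. With the score as a covariate, Dsg2 went to 1.18, Cdh2 to 0.78 and Des to 0.34, and without both hearts Des went to 0.46, none past the limits. The cause of these moves was not tested. Of 120 alternative log2 fold changes of single genes, 96 kept direction and side of the limits. The 14 other junction genes that fell ran from 8 to 17 and the 2 that rose from 1 to 9 when 1 heart was left out, with 26 and 8 by limma-voom with quality weights, 6 and 5 with library totals, and 24 and 11 without both hearts. In the last 3 settings 27.7%, 10.5% and 26.2% of all genes were lower and 26.8%, 22.8% and 27.2% higher. Only the number 3 occurs in both groups, for different animals. No paired analysis was possible because no animal gave a heart to both groups.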
